A study of Mus musculus with 2 samples.

Results

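The collagen-gated barcodes were 88 of the 2492 droplet barcodes in a pair of single-cell RNA libraries from mouse fetal intestine. The barcodes were chosen by measured values of these data: each held at least 500 genes, and Col1a1, Col1a2, Col3a1, Dcn, Lum and Pdgfra together gave at least 5 of its unique molecular identifiers (UMIs) and at least 0.2% of them. Of 2314 barcodes with at least 500 genes, 41 of 875 passed in the Casp8 mutant library and 47 of 1439 in the Mlkl-null library. These 6 genes chose the barcodes, so their presence there is no finding. The Casp8 mutant embryos were homozygous for Casp8 C362A, an allele whose caspase-8 protein cannot cleave its substrates, and also lacked Mlkl. The Mlkl-null embryos carried the Mlkl deletion alone, so both genotypes lacked the pore-forming executor of necroptosis. Both were on the C57BL/6 background and were taken at E18.5, shortly before birth. The labels name the tissue as whole intestine in 1 place and as small intestine in another, and do not say how many embryos went into a library.

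Intestinal fibroblasts are mesenchymal cells that lie under the epithelium and between the muscle layers. They secrete the collagens, proteoglycans and elastic fibre proteins of the connective tissue, and send Wnt, Bmp and growth factor signals to the epithelium. In the fetus they also express imprinted growth genes that are mostly turned down after birth. The mesothelium is the thin cell sheet that covers the outer surface of the gut. It shares collagen and decorin transcripts with fibroblasts, and gives rise to part of the gut mesenchyme during development. Interferons induce antiviral and antigen presentation genes in nearly all nucleated cells, fibroblasts included.

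The comparison set cells with catalytically inactive caspase-8 against cells with active caspase-8, with Mlkl absent from both. Each genotype had 1 library, so a difference has no replicate check and no test is given. All intervals are 95% intervals that cover counting error only. The libraries held 2804929 UMIs in the Casp8 mutant and 6290008 UMIs in the Mlkl-null library. Barcodes with at least 500 genes had a median of 1957 UMIs in the Casp8 mutant and 3714 UMIs in the Mlkl-null library. The collagen-gated barcodes held 133783 UMIs in the Casp8 mutant and 181649 UMIs in the Mlkl-null library. Their depth ran from 1004 to 18448 UMIs (median 1826) in the Casp8 mutant and from 1327 to 30885 UMIs (median 2379) in the Mlkl-null library. The 3 deepest barcodes gave 36.3% of the gated UMIs in the Casp8 mutant and 37.8% in the Mlkl-null library, so sums lean on few barcodes. The libraries shared 2 barcode sequences, of which 0 were gated. In gated barcodes Casp8 had 3 UMIs in the Casp8 mutant and 3 in the Mlkl-null library, and Mlkl had 1 UMI in the Casp8 mutant and 0 in the Mlkl-null library. In the other barcodes Mlkl had 12 UMIs in the Casp8 mutant and 1 in the Mlkl-null library. C362A changes 1 codon and the assay reads transcript ends, and the deleted part of Mlkl is not given, so these counts check neither label.

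Gate genes made up 0.270% to 2.95% of a gated barcode's UMIs (median 0.804%) in the Casp8 mutant and 0.260% to 3.56% (median 0.785%) in the Mlkl-null library. Just outside the gate, barcodes with at least 5 gate UMIs but too low a share reached at most 0.0940% in the Casp8 mutant and 0.170% in the Mlkl-null library. Another 6 Casp8 mutant barcodes and 1 Mlkl-null barcode had the share but stopped at 4 gate UMIs. Among the barcodes with at least 500 genes outside the gate, 703 of 834 in the Casp8 mutant and 1142 of 1392 in the Mlkl-null library held no gate UMI.

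The label of fibroblasts was checked against marker genes, and some gated barcodes went against it. The list of 15 fibroblast markers holds the 6 gate genes, so the label was read on the other 9 (Dlk1, Sparc, Ptn, Postn, Col5a1, Col6a1, Col6a2, Mfap4 and Tcf21). These 9 were all detected in the gated barcodes of both libraries, and each gated barcode held at least 1 of their UMIs. They summed to 5173 CPM in the Casp8 mutant and 10829 CPM in the Mlkl-null library, where CPM is the number of UMIs per 1000000 UMIs of the barcodes summed. In the other barcodes with at least 500 genes they stood at 117 CPM in the Casp8 mutant and 141 CPM in the Mlkl-null library. These genes are expressed together with the gate genes, so the contrast describes the gate and does not test it. A subset also carried the mesothelial genes Upk3b, Msln, Lrrn4, Upk1b, Wt1, Rspo1, Muc16 and Bnc1. With 2 or more UMIs of these 8 genes, a division made after the data were seen, 28 barcodes counted as mesothelium-marked and 60 as unmarked. Of the unmarked barcodes, 19 of 22 in the Casp8 mutant and 34 of 38 in the Mlkl-null library held none of these UMIs. The marked barcodes held 2 to 28 (median 6) in the Casp8 mutant and 4 to 60 (median 18) in the Mlkl-null library.

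Marked barcodes held few or no UMIs of several fibroblast genes. Postn, which encodes the matrix protein periostin, and the mesenchymal transcription factor gene Tcf21 had 0 UMIs in marked barcodes of both libraries. In unmarked ones Postn had 4 UMIs in the Casp8 mutant and 39 in the Mlkl-null library, and Tcf21 had 2 UMIs in the Casp8 mutant and 6 in the Mlkl-null library, so the zeros rest on low counts. The gate gene Pdgfra, the receptor for platelet-derived growth factor on gut mesenchyme, had 0 UMIs in marked barcodes of both libraries, while unmarked ones had 3 UMIs in the Casp8 mutant and 16 in the Mlkl-null library. The gate gene Lum, which encodes the collagen-binding proteoglycan lumican, had 1 UMI in the Casp8 mutant and 1 UMI in the Mlkl-null library in marked barcodes, while unmarked barcodes had 12 UMIs in the Casp8 mutant and 41 in the Mlkl-null library. Clec3b, which encodes tetranectin, had 0 UMIs in marked barcodes of both libraries, and 17 UMIs in the Casp8 mutant and 47 UMIs in the Mlkl-null library in unmarked ones. Lrrn4 was the reverse, with 28 UMIs in the Casp8 mutant and 19 UMIs in the Mlkl-null library in marked barcodes and 0 in unmarked ones of both. Since Lrrn4 was used to divide the barcodes, its split is no finding. As a set, the unmarked barcodes carried all 9 fibroblast markers outside the gate, at 7589.6 CPM in the Casp8 mutant and 11899.6 CPM in the Mlkl-null library, and the marked ones 6 in the Casp8 mutant and 7 in the Mlkl-null library. Single unmarked barcodes went against the label. In the Casp8 mutant 1 of 22 held more epithelial than fibroblast UMIs (113 and 20), and 5 held more erythroid ones. In the Mlkl-null library 2 of 38 held more smooth muscle than fibroblast UMIs (214 and 7 in the higher one), 2 more epithelial and 1 more goblet ones (340 and 144).

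**Figure D1:**
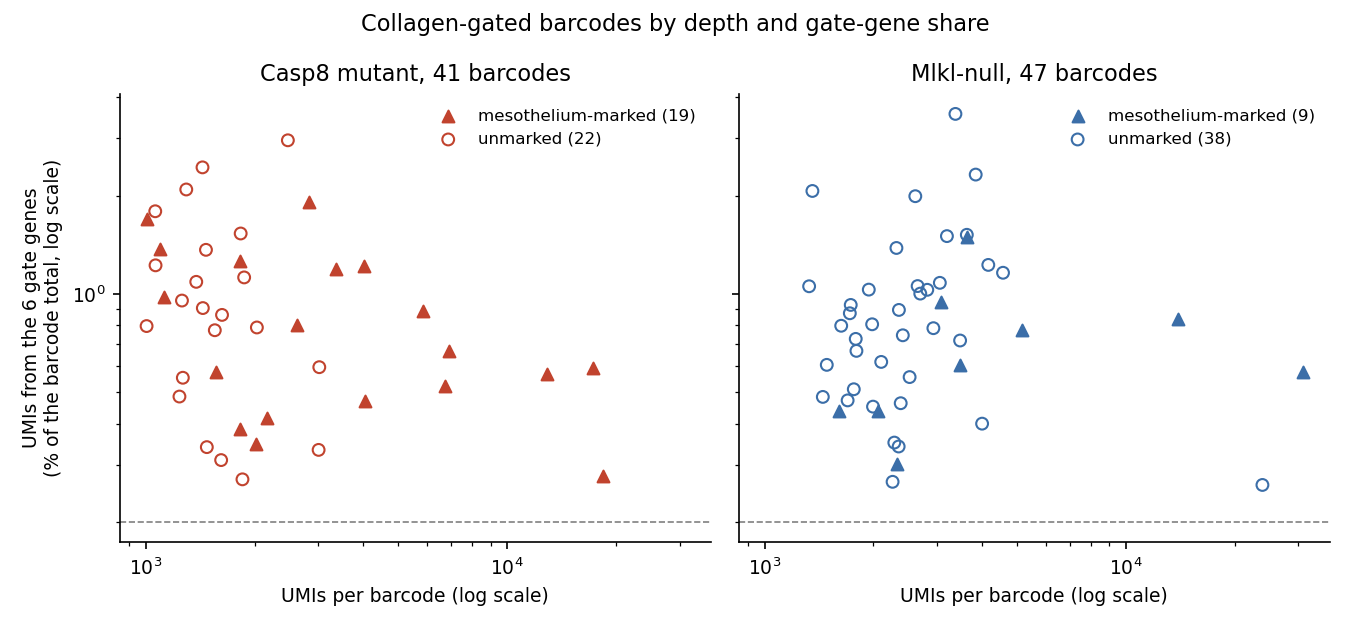
Each point is 1 collagen-gated barcode, with its UMIs on a log scale on the x axis and the share of UMIs from the 6 gate genes in percent on the y axis, for the Casp8 mutant library on the left and the Mlkl-null library on the right. Filled triangles are mesothelium-marked barcodes (19 in the Casp8 mutant and 9 in the Mlkl-null library), open circles are unmarked barcodes (22 in the Casp8 mutant and 38 in the Mlkl-null library), and the dashed line is the 0.2% minimum. The deepest Casp8 mutant barcode, at 18448 UMIs, is marked, and no unmarked Casp8 mutant barcode passes 3019 UMIs.

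Gated barcodes were 4.69% (3.38 to 6.30) of Casp8 mutant barcodes with at least 500 genes and 3.27% (2.41 to 4.32) of Mlkl-null ones, a ratio of 1.43. Within the gate the higher share lay in the marked barcodes. These were 2.17% (1.31 to 3.37) in the Casp8 mutant and 0.625% (0.286 to 1.18) in the Mlkl-null library, a ratio of 3.47. Outside the gate, 4 Casp8 mutant and 13 Mlkl-null barcodes also held 2 or more UMIs of the 8 mesothelial genes. The ratio therefore holds for gated barcodes only, and the minimum of 2 UMIs was not varied. Unmarked barcodes were 2.51% (1.58 to 3.78) in the Casp8 mutant and 2.64% (1.88 to 3.61) in the Mlkl-null library, with overlapping intervals. The mix also set the weight of each kind in sums over all gated barcodes. Marked barcodes gave 72.9% of gated UMIs in the Casp8 mutant and 36.4% in the Mlkl-null library, at a median depth of 2829 UMIs in the Casp8 mutant and 3479 UMIs in the Mlkl-null library. Unmarked barcodes had a median of 1470 UMIs in the Casp8 mutant and 2350 UMIs in the Mlkl-null library. Ratios of the main lists and of most named genes are therefore also given within the marked and within the unmarked barcodes. The other 834 Casp8 mutant and 1392 Mlkl-null barcodes with at least 500 genes stand beside them, for levels and differences outside the gate. They include barcodes rich in epithelial, goblet or erythroid transcripts. Their levels thus hold the expression of other cells as well as any free RNA, and these were not separated.

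Beside the gate genes, the genes that most set the gated barcodes apart from the other barcodes in both libraries encoded matrix and mesothelial proteins. Mfap5, an elastic fibre protein gene, was 152-fold above its level in other barcodes in the Casp8 mutant and 206-fold in the Mlkl-null library. Mir7678, a locus whose counts cannot be told apart from those of Slpi, was 141-fold above in the Casp8 mutant and 533-fold in the Mlkl-null library. Ptgis, which encodes prostacyclin synthase, was 119-fold above in the Casp8 mutant and 104-fold in the Mlkl-null library. Igfbp5, whose product binds insulin-like growth factors, was 96.4-fold above in the Casp8 mutant and 102-fold in the Mlkl-null library. Clec3b, Rarres2, Lrrn4, Aebp1, Sparc, Dmkn and Ccdc80 followed, with the smaller of their folds between 74.9 and 92.4. Since the gate is a choice on gene levels, these folds are a description of it.

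Over all gated barcodes, 2582 genes reached the minimum of 20 UMIs, summed over the libraries, and counted as measured. Of these 293 (11.3%) were at least 2-fold higher in the Casp8 mutant and 419 (16.2%) at least 2-fold lower, with a median log2 ratio of -0.12. Within the marked barcodes 205 of 1361 genes (15.1%) were higher and 168 (12.3%) lower. Within the unmarked barcodes 147 of 1266 genes (11.6%) were higher and 214 (16.9%) lower. In the other barcodes 2691 of 15026 genes (17.9%) were higher and 2723 (18.1%) lower. These are counts by size of ratio, not by a test, and the shares are the background against which each gene list is set. The gene lists drew on knowledge of the tissue, were chosen with earlier results of these data known, and are given as counts and sums. Cdkn1c, Cxcl10, H19, Igf1, Igf2, Jun, Junb, Meg3, Mest, Mfap4, Psme1, Timp1 and B2m overlap another annotated gene. Whether counting used strand is not given, so their levels are uncertain to that extent.

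Genes induced by interferon were higher in the Casp8 mutant, with the highest summed ratio over all gated barcodes of the 29 lists that hold no sex-linked genes. In unmarked barcodes alone the complement list (5.84) and the haemoglobin list (4.01) were above it. Of 58 genes on the list, 17 were measured over all gated barcodes, 14 of them at least 2-fold higher in the Casp8 mutant and 0 lower, with a median log2 ratio of 3.73. Summed, they stood at 16213 CPM in the Casp8 mutant and 3265 CPM in the Mlkl-null library, a ratio of 4.96 (4.53 to 5.45). The higher genes included Isg15, Ifit1, Ifitm3, Bst2, Oasl2, Irf7, Ifi27l2a, Gbp2, Gbp3 and Zbp1. In marked barcodes the ratio was 7.25 (6.17 to 8.62), and 12 of 14 measured genes were higher and 0 lower. In unmarked barcodes the ratio was 3.62 (3.18 to 4.13), and 5 of 7 measured genes were higher and 0 lower. The other barcodes had 10772 CPM in the Casp8 mutant and 1372 CPM in the Mlkl-null library, a ratio of 7.85 (7.66 to 8.05), with 52 of 56 measured genes higher and 0 lower. The list was thus higher in the Casp8 mutant inside and outside the gate.

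Among marked barcodes, the list summed to 6007 to 25330.4 CPM (median 14235) in the Casp8 mutant and 486 to 4873 CPM (median 2012) in the Mlkl-null library, with no overlap. Among unmarked barcodes it summed to 4921 to 29249 CPM (median 14150.4) in the Casp8 mutant and 754 to 7215 CPM (median 4203) in the Mlkl-null library, with some overlap at the low end of the Casp8 mutant. To compare barcodes at equal depth, each was thinned to 1500 UMIs, which left out 15 gated barcodes in the Casp8 mutant and 4 in the Mlkl-null library. At that depth 26 of 26 Casp8 mutant and 34 of 43 Mlkl-null gated barcodes held at least 3 UMIs of the list, beside 41 of 41 in the Casp8 mutant and 44 of 47 in the Mlkl-null library at full depth. The same count in other barcodes was 571 of 584 in the Casp8 mutant and 418 of 1311 in the Mlkl-null library after thinning. The thinned barcodes held a median of 21.5 such UMIs in the Casp8 mutant and 5 in the Mlkl-null library. The Mlkl-null level was itself unequal, with a median of 2 UMIs in marked, 6 in unmarked and 2 in other thinned barcodes.

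Ifi27l2a, which encodes a small interferon-induced mitochondrial protein, had 4141 CPM in the Casp8 mutant and 215 CPM in the Mlkl-null library, a ratio of 19.1 (13.9 to 27.4). It was higher in both kinds of barcode, at 4644 CPM in the Casp8 mutant and 287 CPM in the Mlkl-null library in marked barcodes. In unmarked ones it had 2787 CPM in the Casp8 mutant and 173 CPM in the Mlkl-null library. In other barcodes it stood at 470.0 CPM in the Casp8 mutant and 25.6 CPM in the Mlkl-null library. Ifitm3, which encodes a membrane protein that blocks virus entry, had 4201 CPM in the Casp8 mutant and 859 CPM in the Mlkl-null library, a ratio of 4.88 (4.09 to 5.88). In unmarked barcodes it had 3091 CPM in the Casp8 mutant and 996 CPM in the Mlkl-null library, and in other barcodes 1232 CPM in the Casp8 mutant and 86.2 CPM in the Mlkl-null library. After thinning, 26 of 26 Casp8 mutant and 25 of 43 Mlkl-null gated barcodes held an Ifitm3 UMI. The levels of both genes in gated barcodes were thus above those in other barcodes in each library. Ifitm2, a close relative of Ifitm3 with which reads may be shared, had 1263 CPM in the Casp8 mutant and 1112 CPM in the Mlkl-null library, a ratio of 1.14 (0.921 to 1.40), and was higher in marked barcodes (2.21) but not in unmarked ones (0.862).

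Isg15, which encodes a ubiquitin-like modifier, had 1032 CPM in the Casp8 mutant and 66.1 CPM in the Mlkl-null library, a ratio of 15.04 (8.66 to 31.0), with 18.51 (7.13 to 106) in marked and 14.6 (7.32 to 35.5) in unmarked barcodes. Bst2, which encodes the virus-tethering protein tetherin, had 1203 CPM in the Casp8 mutant and 66.1 CPM in the Mlkl-null library, a ratio of 17.5 (10.1 to 36.0), with 35.7 (12.1 to 371) in marked and 9.26 (4.55 to 21.9) in unmarked barcodes. Unlike Ifi27l2a, both stood within 2-fold of their level in other barcodes of the same library. There Isg15 had 1603 CPM in the Casp8 mutant and 33.1 CPM in the Mlkl-null library, and Bst2 had 904 CPM in the Casp8 mutant and 55.8 CPM in the Mlkl-null library. After thinning, an Isg15 UMI was found in 17 of 26 gated and 423 of 584 other barcodes of the Casp8 mutant, and in 2 of 43 gated and 60 of 1311 other barcodes of the Mlkl-null library. Ly6a, the gene of the interferon-responsive surface protein Sca-1, had 882 CPM in the Casp8 mutant and 22.02 CPM in the Mlkl-null library, a ratio of 35.8 (15.2 to 149), and 881 CPM in other Casp8 mutant barcodes. How much of the Isg15, Bst2 and Ly6a transcripts was free RNA was not tested.

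The 250 bases before the start of 4 of the 15 genes that ranked highest held GAAA, any 2 bases and GAAA again, the core of the interferon-stimulated response element, on the gene's own strand. They are shown because these genes ranked among the 15 highest and held the motif, so neither trait of the 4 is a finding. Interferon-activated factors bind this core, and whether any bound here was not tested. The sequences are RefSeq promoters of build GRCm38.p6, read 5′ to 3′ on the gene's strand, with the bases in matches in capitals.
Isg15 (chr4:156200819-156201068, minus strand): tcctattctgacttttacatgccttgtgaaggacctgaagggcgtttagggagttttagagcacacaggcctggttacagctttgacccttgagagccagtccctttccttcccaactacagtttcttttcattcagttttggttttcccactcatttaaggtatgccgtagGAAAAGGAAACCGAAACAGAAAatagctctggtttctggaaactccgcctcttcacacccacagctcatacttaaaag
Bst2 (chr8:71537473-71537722, minus strand): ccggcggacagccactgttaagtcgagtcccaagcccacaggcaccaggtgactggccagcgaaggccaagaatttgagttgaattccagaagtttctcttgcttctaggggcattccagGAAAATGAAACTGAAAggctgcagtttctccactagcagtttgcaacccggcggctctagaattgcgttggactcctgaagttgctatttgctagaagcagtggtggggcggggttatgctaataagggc
B2m (chr2:122147437-122147686, plus strand): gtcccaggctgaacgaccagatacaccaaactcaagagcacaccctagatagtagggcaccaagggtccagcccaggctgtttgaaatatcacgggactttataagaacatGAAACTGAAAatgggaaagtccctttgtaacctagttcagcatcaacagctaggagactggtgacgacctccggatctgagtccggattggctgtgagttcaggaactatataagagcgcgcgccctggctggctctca
Saa3 (chr7:46715677-46715926, minus strand): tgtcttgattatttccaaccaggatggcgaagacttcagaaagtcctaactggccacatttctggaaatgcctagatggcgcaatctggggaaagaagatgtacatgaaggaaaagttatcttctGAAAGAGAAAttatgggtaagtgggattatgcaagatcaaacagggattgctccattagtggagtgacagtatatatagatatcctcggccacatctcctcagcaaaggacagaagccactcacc

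In Isg15 there were 3 overlapping matches, from 78 to 57 bases before the start. In Bst2 there were 2 overlapping matches, from 130 to 115 bases before it. B2m and Saa3 held 1 match each, at 139 to 130 bases before the start in B2m and 125 to 116 in Saa3. Searched on both strands, the motif lay in 978 of 32851 promoters of the table (2.98%) and in 936 of 27025 genes (3.46%). It was found in 6 of the 12 measured interferon list genes with a promoter in the table, and in 1 of 12 measured MHC class I genes. Of the 15 genes that ranked highest, 10 had a promoter there and 4 held it. Of the 15 that ranked lowest, 7 had a promoter there and 1, Mylk, held it on the other strand. TATAAA was in 4063 promoters (12.4%), and in 1 of the 3 gate genes with a promoter in the table, Col3a1. A match describes the letters of the window and not a bound site.

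Genes of antigen presentation by MHC class I were also higher in the Casp8 mutant. Of 12 measured genes, 8 were at least 2-fold higher and 0 lower, with a median log2 ratio of 1.71. They were B2m, H2-K1, H2-D1, the immunoproteasome subunit genes Psmb8, Psmb9 and Psmb10, and Psme1 and Psme2. The list summed to 6406 CPM in the Casp8 mutant and 1998 CPM in the Mlkl-null library, a ratio of 3.20 (2.83 to 3.63), which was 3.51 (2.92 to 4.27) in marked and 2.37 (1.94 to 2.90) in unmarked barcodes. The other barcodes gave a ratio of 1.79 (1.76 to 1.83). B2m, the light chain shared by all class I molecules, had 1727 CPM in the Casp8 mutant and 297 CPM in the Mlkl-null library, a ratio of 5.77 (4.30 to 7.96), with 8.68 (5.21 to 16.7) in marked and 3.66 (2.35 to 5.75) in unmarked barcodes. H2-D1, a class I heavy chain gene, had 769.9 CPM in the Casp8 mutant and 121 CPM in the Mlkl-null library, a ratio of 6.25 (3.98 to 10.6), with 8.09 (3.82 to 24.5) in marked and 5.12 (2.68 to 10.3) in unmarked barcodes, though reads of near-identical class I genes may be split among them. Psme1, a subunit gene of the proteasome activator, had 478 CPM in the Casp8 mutant and 138 CPM in the Mlkl-null library, a ratio of 3.43 (2.16 to 5.76), with 2.39 (1.36 to 4.66) in marked and 3.19 (1.19 to 8.53) in unmarked barcodes. In other barcodes the levels were 1603 CPM in the Casp8 mutant and 339 CPM in the Mlkl-null library for B2m, and 921 CPM in the Casp8 mutant and 271 CPM in the Mlkl-null library for H2-D1. Cd74, the invariant chain of MHC class II, had 463 CPM in the Casp8 mutant and 49.5 CPM in the Mlkl-null library, and 57 of 62 Casp8 mutant UMIs were in marked barcodes.

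**Figure D2:**
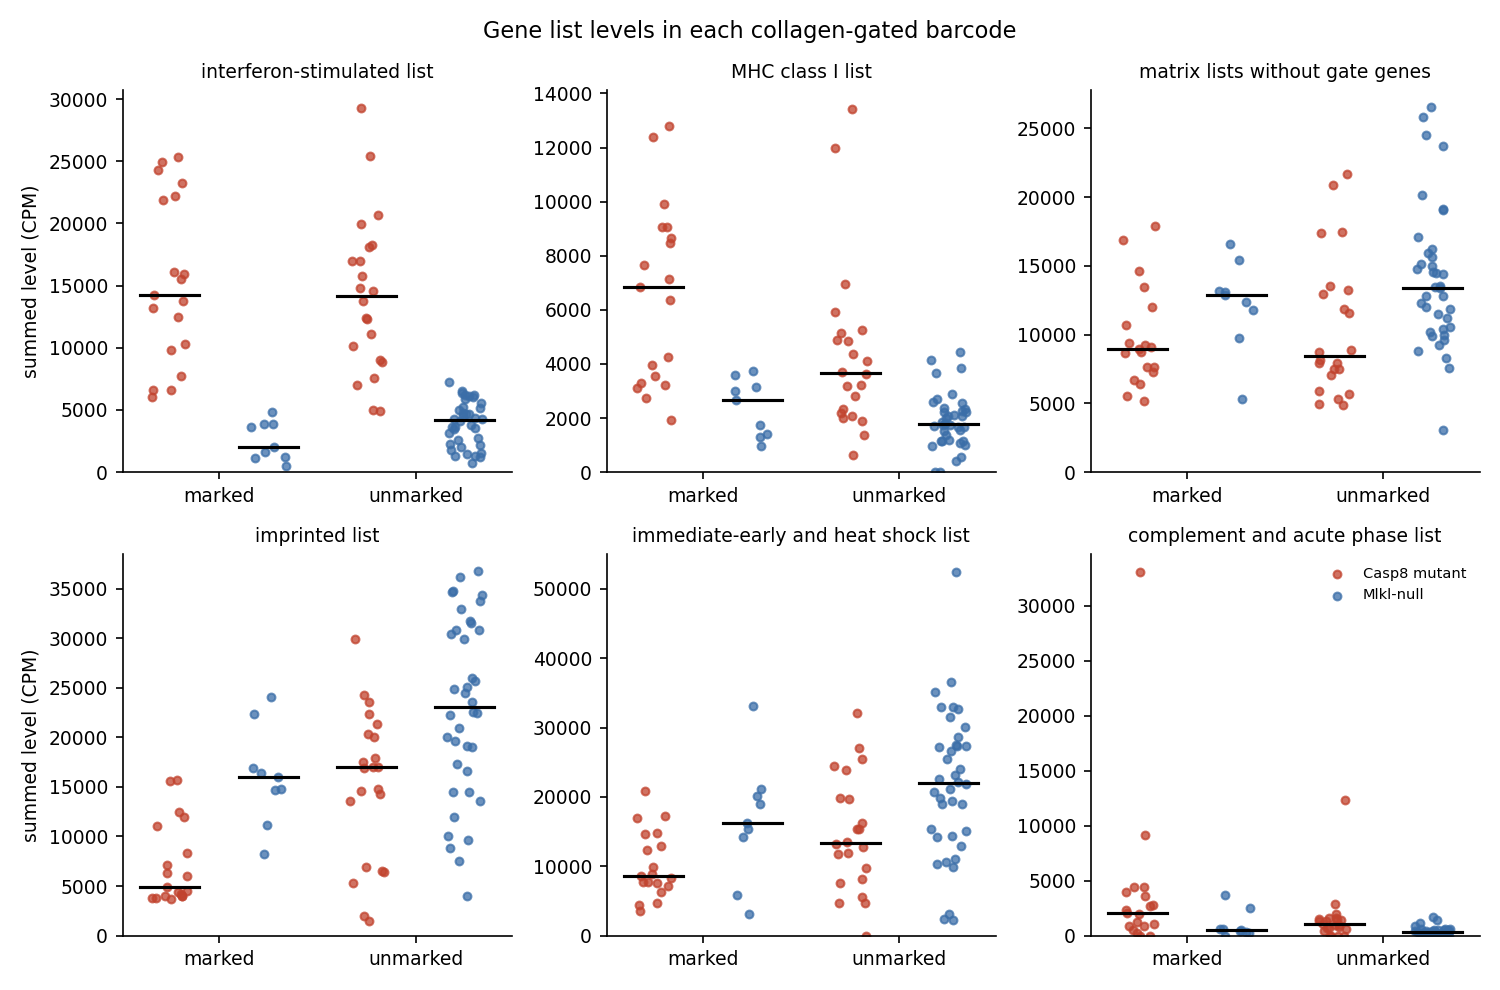
Each point is 1 collagen-gated barcode, and the y axis is the summed level of a gene list in CPM, with marked barcodes on the left and unmarked ones on the right of each panel. Red points are the Casp8 mutant (19 marked, 22 unmarked), blue points the Mlkl-null library (9 marked, 38 unmarked), and black lines are medians. The interferon medians are 14235 CPM in the Casp8 mutant and 2012 CPM in the Mlkl-null library in marked barcodes. The medians of the imprinted, the matrix and the immediate-early and heat shock lists are lower in the Casp8 mutant in both kinds of barcode.

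Matrix genes other than the 6 gate genes were lower in the Casp8 mutant. Of 72 such collagen, proteoglycan and glycoprotein genes, 37 were measured, 2 of them at least 2-fold higher and 19 at least 2-fold lower, with a median log2 ratio of -1.01. Of all measured genes, 11.3% were higher and 16.2% lower. In marked barcodes 2 of 13 were higher and 4 lower (median -0.64), beside 12.3% of all genes lower. In unmarked ones 2 of 30 were higher and 10 lower (median -0.52), beside 16.9% of all genes lower. Without the deepest Mlkl-null barcode there, 1 of 24 was higher and 7 were lower. Both medians were smaller in size than that over all gated barcodes. The matrix genes summed to 8589 CPM in the Casp8 mutant and 13427 CPM in the Mlkl-null library, a ratio of 0.640 (0.596 to 0.686). The ratio was 0.704 (0.637 to 0.779) in marked and 0.684 (0.608 to 0.766) in unmarked barcodes. In other barcodes it was 0.954 (0.901 to 1.01), at 674 CPM in the Casp8 mutant and 707 CPM in the Mlkl-null library. Per barcode the ranges overlapped widely, at 4865 to 21678 CPM (median 8443) in the Casp8 mutant and 3099 to 26583 CPM (median 13417) in the Mlkl-null library among unmarked barcodes.

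The fibrillar collagen sum, mostly of gate gene UMIs, was near equal between the libraries. Type I and III chains form the fibres that bear tension in connective tissue. Of 5 measured genes 0 were 2-fold higher and 0 lower, and their sum was 6533 CPM in the Casp8 mutant and 6744 CPM in the Mlkl-null library, a ratio of 0.969 (0.887 to 1.06). As the gate read 3 of them, they are given as values alone. Col1a1 had 3939 CPM in the Casp8 mutant and 3099 CPM in the Mlkl-null library, and Col1a2 had 1517 CPM in the Casp8 mutant and 1756 CPM in the Mlkl-null library. In unmarked barcodes both were higher in the Casp8 mutant, with Col1a1 at 5161 CPM in the Casp8 mutant and 3438 CPM in the Mlkl-null library, and Col1a2 at 2732 CPM in the Casp8 mutant and 2079 CPM in the Mlkl-null library. Col3a1 had 792 CPM in the Casp8 mutant and 1497 CPM in the Mlkl-null library, and its marked level was 625 CPM in the Casp8 mutant and 1315 CPM in the Mlkl-null library. Dcn, the gene of the proteoglycan decorin, which binds collagen fibrils, had 1278 CPM in the Casp8 mutant and 1547 CPM in the Mlkl-null library. Lum had 97.2 CPM in the Casp8 mutant and 231 CPM in the Mlkl-null library over all gated barcodes. In unmarked ones, where nearly all its UMIs lay, it had 331 CPM in the Casp8 mutant and 355 CPM in the Mlkl-null library. Pdgfra had 3 UMIs in 2 Casp8 mutant barcodes and 16 UMIs in 6 Mlkl-null barcodes, of which 11 were in 1 barcode. Col5a1, a fibrillar collagen outside the gate that starts fibril assembly, had 97.2 CPM in the Casp8 mutant and 176 CPM in the Mlkl-null library, a ratio of 0.564 (0.266 to 1.08).

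Outside the fibrillar collagens, the network and beaded filament collagens and the glycoproteins had lower sums in the Casp8 mutant. Most fibrillar UMIs were of gate genes, so the lists do not show whether fibrillar collagens differed from these. Of 7 measured collagens that do not form fibrils, 6 (Col4a1, Col4a2, Col6a1, Col6a3, Col14a1 and Col18a1) were at least 2-fold lower and 0 higher, with a summed ratio of 0.403 (0.331 to 0.486). In marked barcodes 3 of 3 were lower, at 0.442 (0.334 to 0.580). In unmarked ones 2 of 5 were lower and 0 higher, at 0.493 (0.358 to 0.656). Without the deepest Mlkl-null barcode there, 2 of 4 were lower, at 0.576 (0.415 to 0.775). Col6a1, a chain of the beaded filament collagen VI, had 329 CPM in the Casp8 mutant and 798 CPM in the Mlkl-null library, a ratio of 0.415 (0.287 to 0.581). It was lower in both kinds of barcode, at 0.420 times the Mlkl-null level in marked and 0.426 times in unmarked ones. Its partner chain gene Col6a2 had 344 CPM in the Casp8 mutant and 606 CPM in the Mlkl-null library, at 0.423 times the Mlkl-null level in marked and 0.954 times in unmarked barcodes. Col18a1, a basement membrane collagen, had 82.2 CPM in the Casp8 mutant and 171 CPM in the Mlkl-null library. Col4a1, the basement membrane network chain, had 11 UMIs in the Casp8 mutant and 75 UMIs in the Mlkl-null library, of which 40 were in 1 barcode. Of 24 measured glycoprotein and elastic fibre genes, 2 were higher and 11 lower, with a summed ratio of 0.698 (0.642 to 0.758). In marked barcodes 2 of 9 were higher and 1 lower, with a median log2 ratio of -0.01 and a summed ratio of 0.748 (0.664 to 0.842). In unmarked ones 2 of 20 were higher and 6 lower, at 0.738 (0.641 to 0.844). Without the deepest Mlkl-null barcode there, 3 of 16 were lower, beside 15.1% of all genes. Sparc had 2257 CPM in the Casp8 mutant and 3143 CPM in the Mlkl-null library, a ratio of 0.719 (0.623 to 0.827), with 0.589 in marked and 0.650 in unmarked barcodes. Mfap4, an elastic microfibril gene, had 2 UMIs in 1 Casp8 mutant barcode and 48 UMIs in 21 Mlkl-null barcodes. Over all gated barcodes the 2 higher genes were Igfbp2 (232 CPM in the Casp8 mutant and 93.6 CPM in the Mlkl-null library) and Igfbp5 (718 CPM in the Casp8 mutant and 347 CPM in the Mlkl-null library). Both had most UMIs in marked barcodes. The ratio of Igfbp5 was 1.23 (0.844 to 1.82) in marked and 2.70 (1.29 to 5.51) in unmarked barcodes, and that of Igfbp2 1.29 (0.681 to 2.63) in marked barcodes, with 2 UMIs in the Casp8 mutant and 2 in the Mlkl-null library in unmarked ones.

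Small proteoglycans and the enzymes that fold collagen had lower sums in the Casp8 mutant. Of 6 measured proteoglycan genes 3 were 2-fold lower and 0 higher, with a summed ratio of 0.737 (0.638 to 0.848) that includes the gate genes Dcn and Lum. It was 0.773 (0.635 to 0.943) in marked and 0.721 (0.558 to 0.915) in unmarked barcodes. Bgn, the gene of biglycan, had 112 CPM in the Casp8 mutant and 303 CPM in the Mlkl-null library, and Ogn, the gene of mimecan, 37.4 CPM in the Casp8 mutant and 127 CPM in the Mlkl-null library. Gpc3, a cell surface glypican gene that restrains growth, was near equal at 598 CPM in the Casp8 mutant and 617 CPM in the Mlkl-null library. Of 11 measured folding and crosslinking genes, 2 were lower and 0 higher, near the 16.2% of all measured genes that were lower, with a summed ratio of 0.704 (0.619 to 0.798). It was 0.681 (0.573 to 0.809) in marked and 0.727 (0.579 to 0.899) in unmarked barcodes. The lower genes were P4ha1 (4 UMIs in the Casp8 mutant and 18 in the Mlkl-null library) and P3h3 (4 UMIs in the Casp8 mutant and 21 in the Mlkl-null library), which encode proline hydroxylases of collagen. Serpinh1, the collagen chaperone, had 845 CPM in the Casp8 mutant and 1107 CPM in the Mlkl-null library, a ratio of 0.765 (0.601 to 0.966), with 0.772 (0.565 to 1.06) in marked and 0.611 (0.367 to 0.944) in unmarked barcodes. Of 9 measured matrix proteases and inhibitors 1, Timp1, was higher and 2, Mmp2 and Adamdec1, lower, with a summed ratio of 0.859 (0.727 to 1.01). The subsets ran in opposite directions, at 1.45 (1.14 to 1.89) in marked and 0.466 (0.326 to 0.639) in unmarked barcodes, and the difference between them was not tested. The unmarked ratio was 0.669 (0.461 to 0.937) without the deepest Mlkl-null barcode. Timp1, an inhibitor of matrix metalloproteinases that lay mostly in marked barcodes, had 463 CPM in the Casp8 mutant and 49.5 CPM in the Mlkl-null library, a ratio of 8.93 (4.62 to 21.4). Mmp2, the gelatinase gene, had 1 UMI in the Casp8 mutant and 24 UMIs in 12 barcodes of the Mlkl-null library. All 84 UMIs of Adamdec1, a gut mesenchyme protease gene, were in 1 Mlkl-null barcode.

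Imprinted growth genes were lower in the Casp8 mutant. Of 15 measured genes 7 (Dlk1, H19, Meg3, Mest, Peg3, Cdkn1c and Grb10) were at least 2-fold lower and 0 higher, with a median log2 ratio of -0.90. In marked barcodes 8 of 11 were lower and 0 higher. In unmarked ones 1 of 14, Mest, was lower and 0 higher, a smaller share than the 16.9% of all genes measured there, at a median log2 ratio of -0.50 beside -0.09 over all genes. Without the deepest unmarked Mlkl-null barcode, H19 was lower as well, 2 of 13. The list summed to 7863 CPM in the Casp8 mutant and 18139 CPM in the Mlkl-null library, a ratio of 0.434 (0.404 to 0.465). The ratio was 0.407 (0.365 to 0.452) in marked and 0.676 (0.613 to 0.744) in unmarked barcodes, and 0.263 (0.256 to 0.270) in other barcodes. Among marked barcodes the list summed to 3734 to 15691 CPM (median 4929) in the Casp8 mutant and 8260.4 to 24042 CPM (median 16004) in the Mlkl-null library. Among unmarked barcodes it summed to 1479 to 29880.5 CPM (median 16974) in the Casp8 mutant and 3984 to 36717 CPM (median 23017) in the Mlkl-null library. The ranges overlapped in both kinds.

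Dlk1, a paternally expressed gene whose product holds mesenchymal precursors undifferentiated, had 1375 CPM in the Casp8 mutant and 3611 CPM in the Mlkl-null library, a ratio of 0.382 (0.322 to 0.449). In unmarked barcodes alone the ratio was 0.673 (0.536 to 0.833), nearer to 1 than over all gated barcodes. Meg3, a maternally expressed long RNA of the same imprinted region, had 1323 CPM in the Casp8 mutant and 3309 CPM in the Mlkl-null library, with a ratio of 0.317 in marked and 0.696 in unmarked barcodes. H19, a maternally expressed long RNA, had 1129 CPM in the Casp8 mutant and 2978 CPM in the Mlkl-null library, with a ratio of 0.326 (0.251 to 0.419) in marked and 0.543 (0.402 to 0.712) in unmarked barcodes. H19 was also lower in other barcodes, at 1102 CPM in the Casp8 mutant and 5584 CPM in the Mlkl-null library, so its level in gated Mlkl-null barcodes was below that around them. Dlk1 had 43.7 CPM in the Casp8 mutant and 37.0 CPM in the Mlkl-null library in other barcodes. Cdkn1c, a growth-limiting inhibitor of cyclin-dependent kinases, had 1091 CPM in the Casp8 mutant and 2868 CPM in the Mlkl-null library, a ratio of 0.381 (0.314 to 0.458), and 0.623 (0.486 to 0.783) in unmarked barcodes. Mest had 142 CPM in the Casp8 mutant and 677 CPM in the Mlkl-null library, a ratio of 0.410 (0.216 to 0.684) in unmarked barcodes, which held 15 UMIs in the Casp8 mutant and 120 in the Mlkl-null library. Igf2, the fetal insulin-like growth factor gene, had 262 CPM in the Casp8 mutant and 429 CPM in the Mlkl-null library, and its ratio was 0.354 (0.183 to 0.646) in marked and 1.30 (0.694 to 2.25) in unmarked barcodes.

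**Figure D3:**
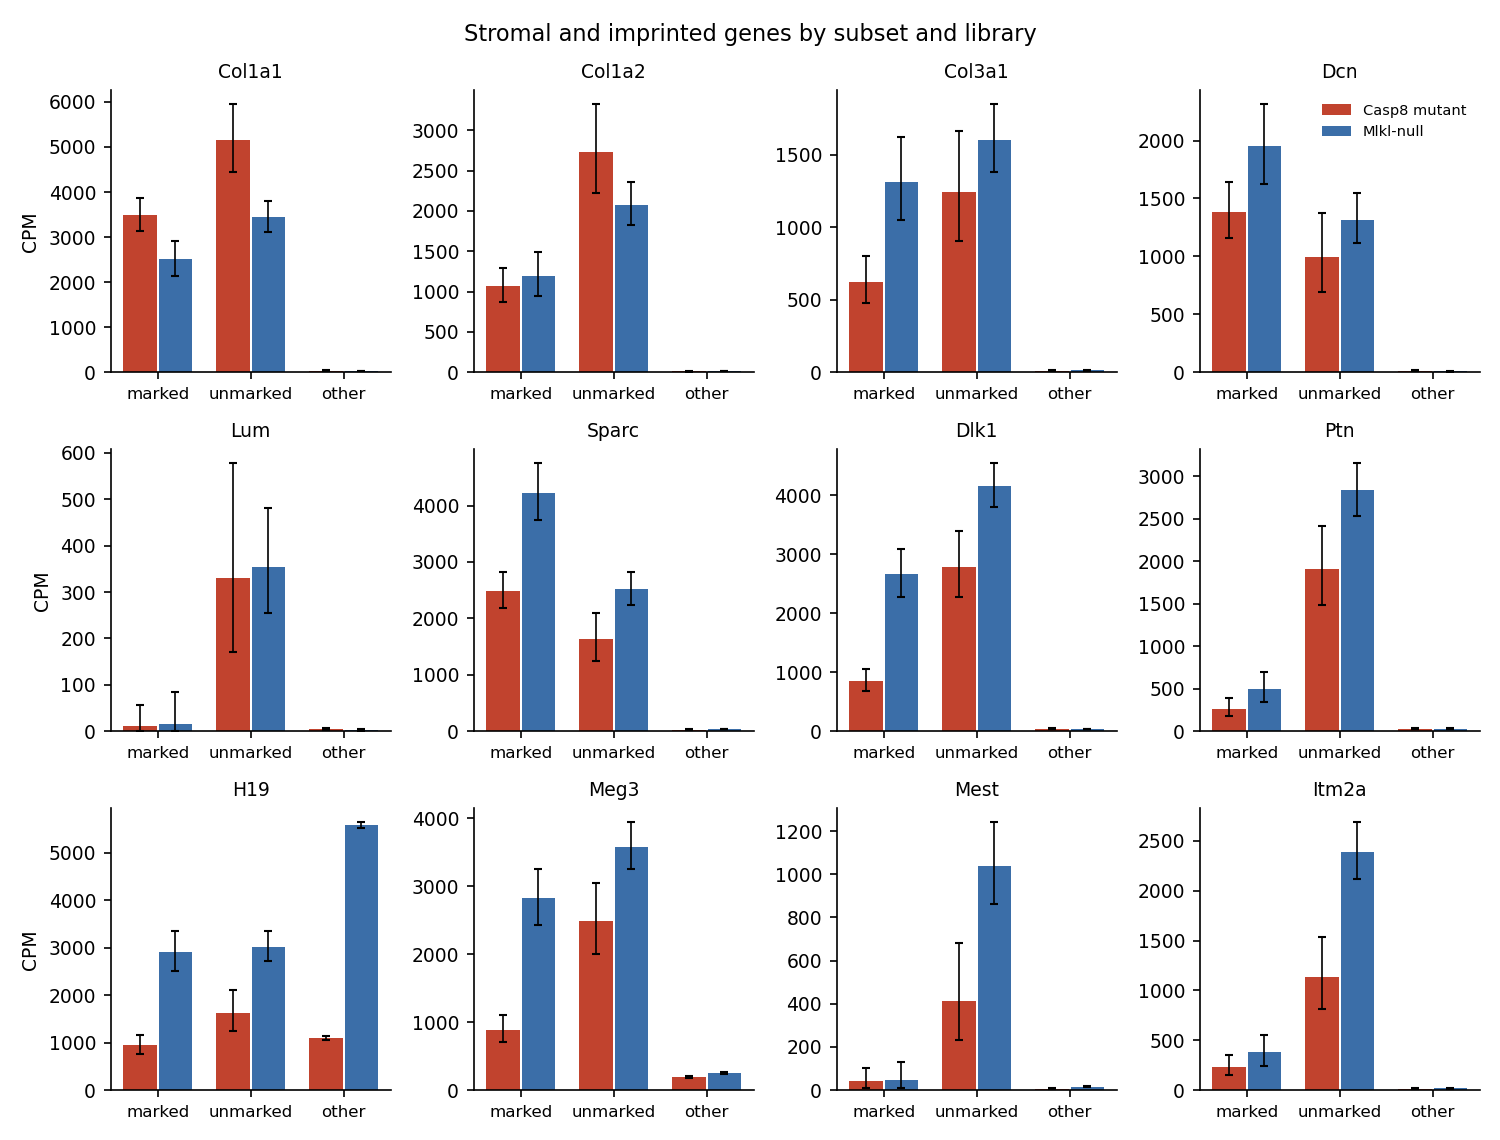
Bars are the levels of 12 stromal and imprinted genes in CPM (y axis, from 0) over marked, unmarked and other barcodes with at least 500 genes, red for the Casp8 mutant and blue for the Mlkl-null library, with 95% Poisson intervals for counting error. Col1a1 is higher in the Casp8 mutant in both kinds of gated barcode, at 5161 CPM in the Casp8 mutant and 3438 CPM in the Mlkl-null library in unmarked ones, while Dlk1, Ptn, Sparc, H19 and Meg3 are lower there. H19 alone among the 12 is highest in other Mlkl-null barcodes, at 5584 CPM.

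Secreted growth factors and their receptors also had lower sums in the Casp8 mutant over all gated barcodes. Of 8 measured ligand genes 4 were 2-fold lower and 0 higher, with a summed ratio of 0.449 (0.385 to 0.520), which was 0.429 (0.332 to 0.552) in marked and 0.768 (0.629 to 0.928) in unmarked barcodes. In marked barcodes 3 of 4 were 2-fold lower, and in unmarked ones 1 of 5, beside 16.9% of all genes measured in the latter. Ptn, the heparin-binding growth factor pleiotrophin, had 710.1 CPM in the Casp8 mutant and 1982 CPM in the Mlkl-null library, a ratio of 0.3597 (0.283 to 0.450). Its level was 1904 CPM in the Casp8 mutant and 2832 CPM in the Mlkl-null library in unmarked barcodes, a ratio of 0.676 (0.511 to 0.874). The related factor gene Mdk had 187 CPM in the Casp8 mutant and 440.4 CPM in the Mlkl-null library, and Igf1 44.8 CPM in the Casp8 mutant and 149 CPM in the Mlkl-null library. Cxcl12, the chemokine that retains progenitors, had 5 UMIs in the Casp8 mutant and 15 UMIs in the Mlkl-null library. Of 4 measured receptor genes, Fgfr1 (4 UMIs in the Casp8 mutant and 20 in the Mlkl-null library) and Igf1r (5 UMIs in the Casp8 mutant and 20 in the Mlkl-null library) were at least 2-fold lower and 0 were higher. The receptor list's summed ratio was 0.439 (0.315 to 0.596), with 0.474 (0.271 to 0.807) in marked and 0.709 (0.451 to 1.05) in unmarked barcodes. Itm2a, a membrane protein gene that ranked among the 15 lowest, had 478 CPM in the Casp8 mutant and 1657 CPM in the Mlkl-null library, and a ratio of 0.478 (0.332 to 0.659) in unmarked barcodes.

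Wnt, Bmp and hedgehog pathway genes of gut mesenchyme were few in UMIs. Of 38 genes 8 were measured, 4 of them lower and 0 higher, and the summed ratio was 0.539 (0.435 to 0.661), with 0.592 (0.449 to 0.778) in marked and 0.418 (0.265 to 0.616) in unmarked barcodes, and 1.29 (1.20 to 1.39) in other barcodes. The unmarked ratio was 0.545 (0.341 to 0.819) without the deepest Mlkl-null barcode. Bmp4, a ligand that restrains epithelial growth, had 2 UMIs in the Casp8 mutant and 31 UMIs in 6 Mlkl-null barcodes, of which 20 were in 1 barcode. Smoc2, a matrix-bound modulator gene, had 0 UMIs in the Casp8 mutant and 24 UMIs spread over 15 Mlkl-null barcodes, at least 5.89-fold lower with the 0 set to a floor of 3 counts. Sfrp1, a secreted Wnt inhibitor, had 7 UMIs in the Casp8 mutant and 23 in the Mlkl-null library. Rspo1, a Wnt amplifier made by mesothelium, had 133 CPM in the Casp8 mutant and 423 CPM in the Mlkl-null library in marked barcodes. Since Rspo1 was used to divide the barcodes, its level there is no finding, and the list's marked ratio includes it. Of 9 measured mesenchymal transcription factor genes 4 were lower and 0 higher, with a summed ratio that was 0.573 (0.429 to 0.763) in marked and 0.698 (0.534 to 0.892) in unmarked barcodes. Foxf1, which acts downstream of hedgehog, had 2 UMIs in the Casp8 mutant and 22 in the Mlkl-null library. Sox11 had 2 UMIs in the Casp8 mutant and 25 in the Mlkl-null library, Gata6 5 UMIs in the Casp8 mutant and 15 in the Mlkl-null library, and Ebf1 2 UMIs in the Casp8 mutant and 18 in the Mlkl-null library. Tshz2, the best covered of them, had 471 CPM in the Casp8 mutant and 793 CPM in the Mlkl-null library, and a ratio of 0.970 (0.650 to 1.39) in unmarked barcodes. The villus fibroblast marker Foxl1 had 0 UMIs in gated barcodes of both libraries.

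Smooth muscle genes were lower in the Casp8 mutant, with most Mlkl-null UMIs in a few barcodes. Summed smooth muscle markers were at 157 CPM (per barcode 0 to 994) in the Casp8 mutant and 2158 CPM (per barcode 0 to 94732) in the Mlkl-null library. A marker UMI lay in 12 of 41 Casp8 mutant and 35 of 47 Mlkl-null gated barcodes. In other barcodes the markers summed to 89.8 CPM in the Casp8 mutant and 377 CPM in the Mlkl-null library. Actg2, smooth muscle gamma actin, had 1 UMI in the Casp8 mutant and 117 UMIs in 8 Mlkl-null barcodes, of which 102 were in 1 barcode. Acta2, smooth muscle alpha actin, had 2 UMIs in 1 Casp8 mutant barcode and 80 UMIs in 15 Mlkl-null barcodes, with at most 35 in 1. Myl9, Mylk and Tagln, which encode a myosin light chain, its kinase and a calponin-related protein, had 1, 1 and 3 UMIs in the Casp8 mutant and 70, 55 and 57 in the Mlkl-null library. Of 18 measured contractile and cytoskeletal genes 7 were lower and 1, S100a11, higher. The list's sum ran the other way, at a ratio of 1.46 (1.40 to 1.51), with 1.54 (1.46 to 1.63) in marked and 1.05 (0.979 to 1.13) in unmarked barcodes, and Actb, the most abundant of its genes, had 15002 CPM in the Casp8 mutant and 7636 CPM in the Mlkl-null library. Of Actb UMIs, 1627 of 2007 in the Casp8 mutant and 381 of 1387 in the Mlkl-null library were in marked barcodes.

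Genes of complement and acute phase proteins were higher in the Casp8 mutant, with most of their UMIs in marked barcodes. Of 4 measured genes 3 were higher and 0 lower, with a summed ratio of 4.61 (3.69 to 5.83). The ratio was 2.93 (2.24 to 3.94) in marked and 5.84 (3.90 to 8.96) in unmarked barcodes. Of the 70 unmarked Casp8 mutant UMIs of the list, 37 were in the barcode with 113 epithelial and 20 fibroblast UMIs. Without it, a choice made after seeing the data, the unmarked ratio was 3.02 (1.83 to 4.94). Saa3, an acute phase serum amyloid gene, had 130 UMIs in 10 Casp8 mutant barcodes and 0 in the Mlkl-null library, at least 58.8-fold higher with the 0 set to a floor of 3 counts. Of these, 93 UMIs were in 7 marked barcodes, with 52 in 1 marked barcode of 1816 UMIs. Of the 37 UMIs in unmarked barcodes, 35 were in the barcode with 113 epithelial UMIs. C3, the central complement gene, had 665 CPM in the Casp8 mutant and 215 CPM in the Mlkl-null library, with 87 of 89 Casp8 mutant UMIs and 38 of 39 Mlkl-null UMIs in marked barcodes. Within them its ratio was 1.54 (1.05 to 2.34). Serping1, an inhibitor of early complement proteases, had 381 CPM in the Casp8 mutant and 154 CPM in the Mlkl-null library, with a ratio of 3.21 (1.48 to 9.05) in marked and 2.45 (1.18 to 4.88) in unmarked barcodes. Slpi, a secreted protease inhibitor gene, had 2833 CPM in the Casp8 mutant and 484 CPM in the Mlkl-null library, but 205 of 379 Casp8 mutant UMIs were in 1 barcode. A microRNA locus of 71 bases, Mir7678, lies inside Slpi on the same strand, and its counts cannot be told apart from those of Slpi. Dmkn, an epithelial secreted protein gene, had 1517 CPM in the Casp8 mutant and 209 CPM in the Mlkl-null library, with a ratio of 3.71 (2.62 to 5.51) within marked barcodes, and Slurp1 had 63 UMIs in 5 Casp8 mutant barcodes and 10 UMIs in 3 Mlkl-null barcodes.

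Chemokine genes differed by kind of barcode. Of 5 measured chemokine and cytokine genes 3 (Ccl2, Ccl7 and Cxcl10) were higher and 1 (Cxcl12) lower over all gated barcodes, with a summed ratio of 1.48 (1.23 to 1.77). Ccl2, which attracts monocytes, had 748 CPM in the Casp8 mutant and 75.5 CPM in the Mlkl-null library in marked barcodes and 304 CPM in the Casp8 mutant and 294 CPM in the Mlkl-null library in unmarked ones. Cxcl1, which attracts neutrophils, had 277 CPM in the Casp8 mutant and 30.2 CPM in the Mlkl-null library in marked barcodes, a ratio of 7.46 (2.30 to 79.5). In unmarked ones it had 607 CPM in the Casp8 mutant and 1013 CPM in the Mlkl-null library, a ratio of 0.610 (0.362 to 0.951). The difference between these ratios was not tested. Cxcl10, an interferon-induced chemokine gene, was higher in both, at 3.50 times the Mlkl-null level in marked and 3.57 times in unmarked barcodes. Of 8 measured NF-kB and TNF target genes 4 (Cxcl2, Ccl2, Ccl7 and Sod2) were higher and 0 lower, while Nfkbia, the feedback inhibitor, had 688 CPM in the Casp8 mutant and 1018 CPM in the Mlkl-null library, a ratio of 0.677 (0.520 to 0.872). The list's summed ratio was 1.83 (1.47 to 2.31) in marked, 0.929 (0.743 to 1.15) in unmarked and 2.84 (2.71 to 2.97) in other barcodes. Cxcl2 had 441 CPM in the Casp8 mutant and 71.6 CPM in the Mlkl-null library in gated and 609 CPM in the Casp8 mutant and 33.0 CPM in the Mlkl-null library in other barcodes.

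Immediate-early genes, which respond within minutes to stimulation or handling, were listed together with heat shock genes. This joint list was lower in the Casp8 mutant. Of 26 measured genes 11 were lower and 0 higher, with a median log2 ratio of -0.89 and a sum of 10449.8 CPM in the Casp8 mutant and 19268 CPM in the Mlkl-null library. In marked barcodes 13 of 23 were lower and 0 higher. In unmarked ones 3 of 23 were lower and 1, the heat shock gene Hspb1, higher. The share that was lower was below the 16.9% of all genes measured there, and the list's median log2 ratio was -0.56. The ratio was 0.542 (0.509 to 0.577) over all gated barcodes, 0.557 (0.509 to 0.610) in marked and 0.697 (0.633 to 0.765) in unmarked ones, beside 1.07 (1.05 to 1.09) in other barcodes. Fos, a subunit gene of the AP-1 factor, had 1188 CPM in the Casp8 mutant and 2554 CPM in the Mlkl-null library, a ratio of 0.466 (0.386 to 0.558), with 0.472 (0.361 to 0.612) in marked and 0.592 (0.437 to 0.778) in unmarked barcodes. Jun, its partner, had 733 CPM in the Casp8 mutant and 2114 CPM in the Mlkl-null library, a ratio of 0.348 (0.275 to 0.434), and 0.490 (0.348 to 0.664) in unmarked barcodes. Junb had 1405 CPM in the Casp8 mutant and 2147 CPM in the Mlkl-null library, a ratio of 0.655 (0.547 to 0.781), but 1.12 (0.808 to 1.58) in marked and 0.870 (0.679 to 1.10) in unmarked barcodes. Levels varied widely between barcodes, from 0 to 32078 CPM (median 13368) in the Casp8 mutant and 2268 to 52399 CPM (median 22017) in the Mlkl-null library among unmarked barcodes. Whether dissociation time or handling differed between the libraries is not given in the labels.

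Metabolic and stress lists had smaller counts of genes past 2-fold over all gated barcodes. Of 11 measured hypoxia and glycolysis genes 0 were 2-fold higher and 0 lower, with a summed ratio of 0.733 (0.637 to 0.842). In unmarked barcodes 3 of 6 (Hk2, Ldha and Ndrg1) were lower, at 0.604 (0.456 to 0.780), and 2 of 6 without the deepest Mlkl-null barcode there. Of 12 endoplasmic reticulum stress genes 1 was higher (Sdf2l1, 14 UMIs in the Casp8 mutant and 8 in the Mlkl-null library) and 1 lower (Dnajb9, 9 UMIs in the Casp8 mutant and 26 in the Mlkl-null library), with a summed ratio of 1.03 (0.895 to 1.18). Of 10 proliferation genes 1, Top2a, was lower and 0 higher (14 UMIs in the Casp8 mutant and 42 in the Mlkl-null library), with a summed ratio of 0.796 (0.703 to 0.898), which was 0.637 (0.541 to 0.7498) in marked and 1.02 (0.827 to 1.24) in unmarked barcodes. The 2 measured p53 target genes, Bax and Cdkn1a, were neither, at a summed ratio of 0.662 (0.485 to 0.889). Of 10 mitochondrially encoded genes 1, mt-Nd6, was lower and 0 higher, with a summed ratio of 0.929 (0.828 to 1.04), beside 0.494 (0.483 to 0.504) in other barcodes. Of 9 nuclear RNAs 1, Xist, was higher and 2, Meg3 and Kcnq1ot1, lower. Malat1 had 36223 CPM in the Casp8 mutant and 44949 CPM in the Mlkl-null library, and the list's ratio was 0.813 (0.772 to 0.856) in marked and 1.23 (1.18 to 1.29) in unmarked barcodes. Of 6 measured retinoid and lipid handling genes 2 were lower and 0 higher, with a summed ratio of 0.690 (0.588 to 0.806), which was 0.612 (0.506 to 0.740) in marked and 0.389 (0.251 to 0.565) in unmarked barcodes, or 0.542 (0.345 to 0.803) in unmarked barcodes without the deepest Mlkl-null one. The lower genes were Rbp4, with 28 of 36 Mlkl-null UMIs in 1 barcode, and Fabp4, with 70 of 72 in 1 barcode. Dgat2, a triglyceride synthesis gene, had 224 CPM in the Casp8 mutant and 798 CPM in the Mlkl-null library, but its level in other barcodes was 360.0 CPM in the Casp8 mutant and 1395 CPM in the Mlkl-null library.

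**Figure D4:**
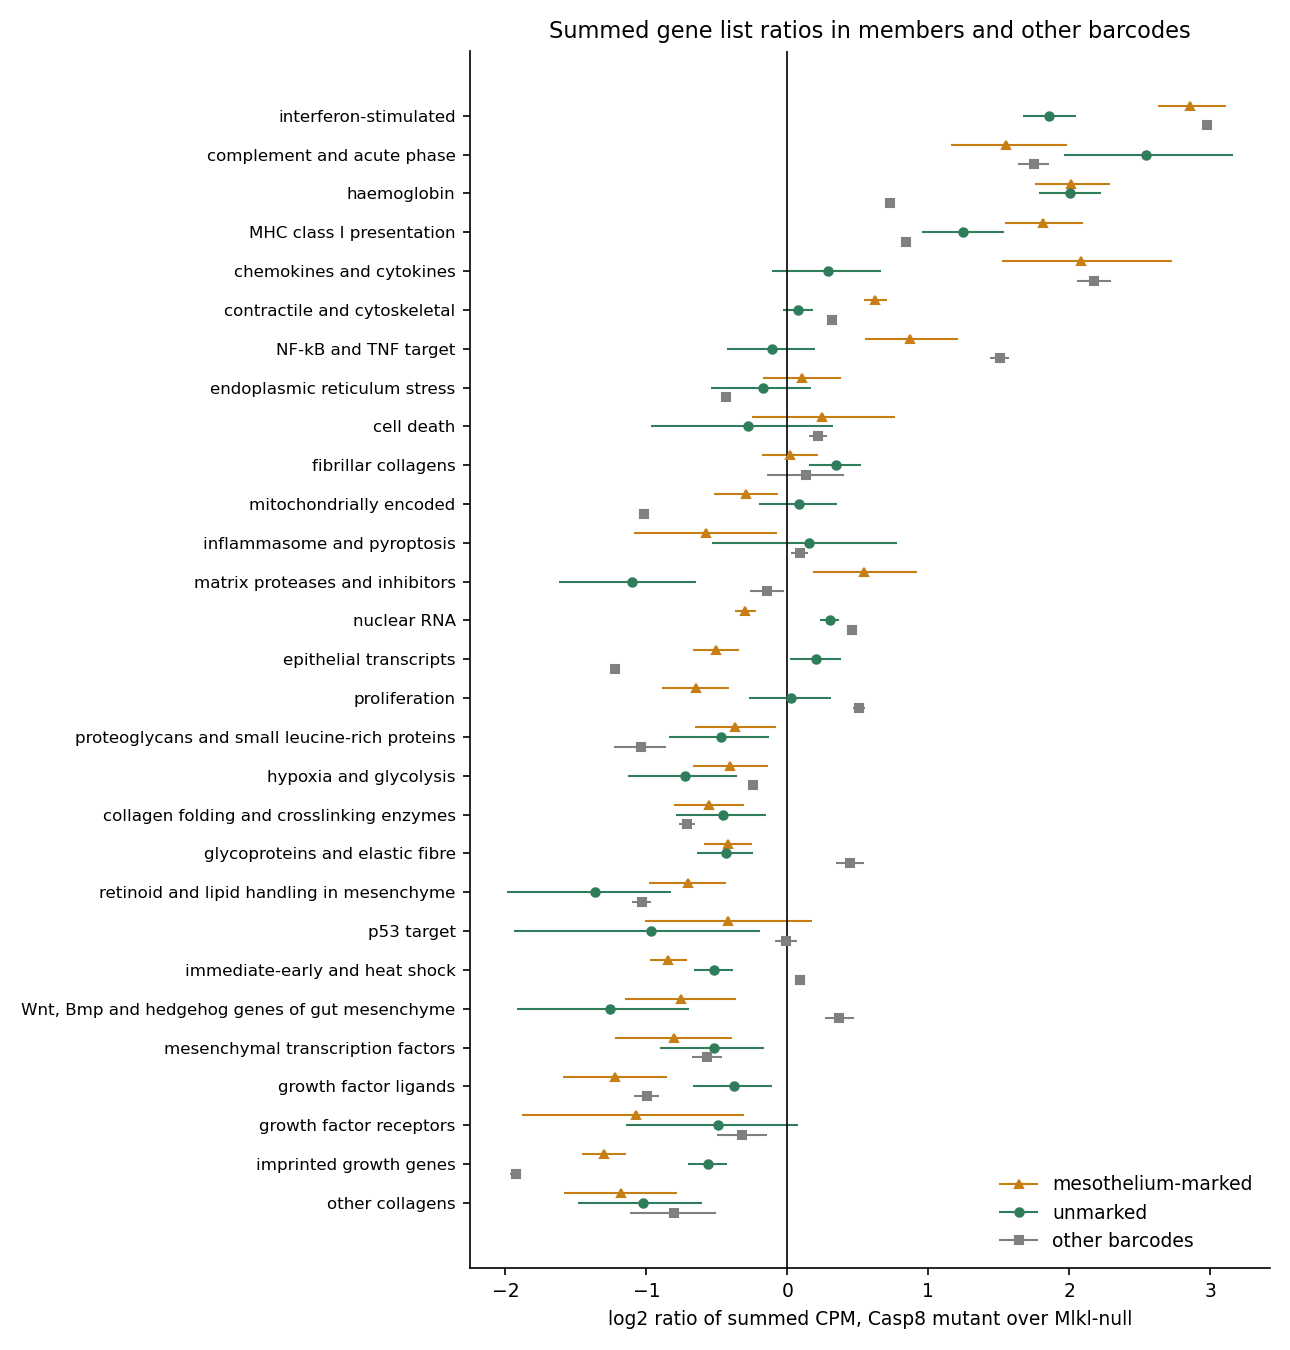
Each row is 1 of 29 gene lists (all but the sex-linked one), ordered by the summed ratio over all gated barcodes, and the x axis is the log2 ratio of summed CPM, Casp8 mutant over Mlkl-null. Triangles are marked, circles unmarked and squares other barcodes with at least 500 genes, with 95% conditional exact intervals for counting error. The interferon list lies to the right in all 3 sets (ratios 7.25, 3.62 and 7.85), and the imprinted list to the left in all 3 (0.407, 0.676 and 0.263).

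Some transcripts in the gated barcodes are known from other cell types, and their sums stood higher in the other barcodes of each library. Granulocyte markers summed to 3087 CPM in the Casp8 mutant and 27.5 CPM in the Mlkl-null library, with 8 of 9 detected in the Casp8 mutant and 2 in the Mlkl-null library. Other barcodes had 4625 CPM in the Casp8 mutant and 80.7 CPM in the Mlkl-null library. The median per barcode was 3179.7 CPM in gated and 3587 CPM in other Casp8 mutant barcodes. Per gated barcode the sum ran from 0 to 5976 CPM in the Casp8 mutant and 0 to 426 CPM in the Mlkl-null library. S100a8 and S100a9, the alarmin pair of neutrophils, had 183 and 163 UMIs in the Casp8 mutant, each in 38 of 41 barcodes, and 3 and 0 UMIs in the Mlkl-null library. In other barcodes S100a8 had 1852 CPM in the Casp8 mutant and 23.6 CPM in the Mlkl-null library. They ranked among the 15 genes with the highest ratios, at levels below those of other barcodes. The 4 measured haemoglobin genes were all at least 2-fold higher, with a summed ratio of 3.73 (3.35 to 4.17), at 9089 CPM in the Casp8 mutant and 2433 CPM in the Mlkl-null library, below 15460.2 CPM in the Casp8 mutant and 9339 CPM in the Mlkl-null library in other barcodes. The median of the erythroid markers per barcode was level, at 10136 CPM in gated and 10493 CPM in other barcodes of the Casp8 mutant, and 2799.6 CPM in gated and 2776 CPM in other barcodes of the Mlkl-null library. Slc4a1, the gene of the anion exchanger of red cells, had 0 UMIs in gated barcodes of both libraries. Epithelial markers stood at 4425 CPM in the Casp8 mutant and 6166 CPM in the Mlkl-null library, below 14502 CPM in the Casp8 mutant and 43213 CPM in the Mlkl-null library in other barcodes. Of 16 measured epithelial transcripts 4 (Reg3b, Reg3g, Krt18 and Mt2) were higher and 4 (Fabp1, Fabp2, Lgals4 and Rbp2) lower. Reg3b and Reg3g, antimicrobial lectins of the epithelium, had 74 and 42 UMIs in the Casp8 mutant and 2 and 0 in the Mlkl-null library, and Fabp1, a fatty acid carrier of enterocytes, had 157 CPM in the Casp8 mutant and 1745 CPM in the Mlkl-null library. Myeloid markers were at 336 CPM in the Casp8 mutant and 132 CPM in the Mlkl-null library, with Adgre1 and Mrc1 at 0 UMIs in both. The part of such RNA in the differences of other genes was not tested.

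A few single barcodes carried several of the lowest ranked genes. In 1 unmarked Mlkl-null barcode of 23866 UMIs, where gate genes gave 0.260% of UMIs, lay 350 of 382 Mlkl-null UMIs of Spink1, a trypsin inhibitor gene, and 116 of 140 UMIs of Agr2, a goblet cell disulfide isomerase gene. The same barcode held all 84 Mlkl-null UMIs of Adamdec1, 70 of 72 of Fabp4, 20 of 31 of Bmp4, 40 of 75 of Col4a1 and 11 of 16 of Pdgfra. It also held 340 goblet, 139 epithelial and 52 endothelial marker UMIs beside 144 of fibroblast markers, and the 52 were most of the 75 endothelial UMIs in gated Mlkl-null barcodes. Without it the log2 ratios were 0.37 for Spink1 and 0.40 for Agr2, higher in the Casp8 mutant. Stmn2, a neuronal tubulin regulator gene, had 50 of 56 Mlkl-null UMIs in 3 marked barcodes. Without the 2 Mlkl-null barcodes that held at least 50 smooth muscle UMIs, the ratio of gated shares was 1.498.

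The genes of the death pathways that caspase-8 controls were scarcely covered. Ripk1, a kinase that caspase-8 cleaves, had 2 UMIs in the Casp8 mutant and 5 in the Mlkl-null library, and Ripk3, the kinase that activates Mlkl, had 1 UMI in the Casp8 mutant and 2 in the Mlkl-null library. Zbp1, a nucleic acid sensor gene that can start necroptosis and is induced by interferon, had 30 UMIs in 13 Casp8 mutant barcodes and 0 in the Mlkl-null library, at least 13.6-fold higher on the same footing. Of these, 28 were in marked barcodes. After thinning, 3 of 26 Casp8 mutant gated barcodes held a Zbp1 UMI, beside 114 of 584 other barcodes. Of 5 measured cell death genes 1, Zbp1, was higher and 1, Tnfrsf1a, lower (4 UMIs in the Casp8 mutant and 17 in the Mlkl-null library), with a summed ratio of 1.03 (0.802 to 1.31). Of 4 measured inflammasome and pyroptosis genes 1, Il1b, was higher and 0 lower (18 UMIs in the Casp8 mutant and 2 in the Mlkl-null library). Its Casp8 mutant level was 135 CPM in gated and 256 CPM in other barcodes.

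The libraries also differed in sex-linked transcripts. Xist, the RNA that silences the second X chromosome in females, had 454 UMIs in the Casp8 mutant, in all 41 gated barcodes, and 0 in the Mlkl-null library. The Y-linked Ddx3y had 0 UMIs in the Casp8 mutant and 21 UMIs in 13 Mlkl-null barcodes. Sex and genotype cannot be told apart in these libraries.

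Clustering of the 88 barcodes without interferon, MHC, haemoglobin, mitochondrial, ribosomal and sex-linked genes gave 4 groups. The largest held 32 barcodes, 17 from the Casp8 mutant and 15 from the Mlkl-null library, 0 of them marked. Its leading genes began with Adamdec1, Fabp4, Spink1, Col6a4 and Agr2 and included Plvap, Sele and Eng, and for Adamdec1, Fabp4, Spink1 and Agr2 most Mlkl-null UMIs were in the 1 deep barcode above. A second held 27, with 20 from the Casp8 mutant and 7 from the Mlkl-null library, of which 24 were marked. It was led by Mir7678, Slpi, Dmkn, Lgals7 and Saa3, with Lrrn4, Msln and Upk3b among its 12 leading genes, and is mesothelial-like. The third held 24 barcodes, 1 from the Casp8 mutant and 23 from the Mlkl-null library, and was led by Actg2, Acta2, Mylk and Tagln. Only 2 of its barcodes held 50 or more smooth muscle UMIs, and its fibroblast markers summed to 20411 CPM beside 6864 CPM of smooth muscle markers. With 1 library per genotype, a group made mostly of 1 library may be that library and not a cell type. The fourth held 5 barcodes, 3 from the Casp8 mutant and 2 from the Mlkl-null library, and is not named.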

How the data were processed

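Intestines of E18.5 embryos were dissociated with papain and about 10000 cells per sample were loaded, per the labels' protocols (10x 3' v2 kit). The deposited files hold raw UMI counts per Ensembl gene ID and barcode. Cell Ranger 3.0.2, Seurat 3.0 and the build mm10 appear, with no role, in the submitters' processing notes. No source used here gives the barcode filter, the annotation or the use of strand. Symbols were matched for 52403 of 52636 IDs. The members, the 30 gene lists and the 18 marker lists were chosen with earlier results of these data known.

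UMIs were summed per library over the collagen-gated, marked, unmarked and other barcodes, and divided by the set's total. Ratios had 0.5 UMI added to each sum. Intervals are conditional exact for ratios, exact Poisson for levels and Clopper-Pearson for shares, all 95%. Genes with at least 20 UMIs over both libraries were measured. A level of 0 was set to a floor of 3 counts for bounds. With 1 library per genotype no test across libraries was possible. Python 3.11.15, numpy 2.4.6, scipy 1.17.1, pandas 2.3.3, scanpy 1.11.5 and matplotlib 3.10.9 were used.

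The genes named were the gate and death pathway genes, the 15 highest and 15 lowest by the interval bound nearest 1, up to 4 genes with most UMIs per list, list genes past 2-fold where there were at most 5, and the 15 that most set gated barcodes apart. The ranking took genes with at least 50 UMIs, 100 CPM and 50% of the level in other barcodes, and left out sex-linked, predicted, haemoglobin, ribosomal protein and mitochondrial genes. A few more, such as Lum by subset, Il1b, Ifitm2 and Stmn2, are named for what their UMIs show. Scrublet called 2 Casp8 mutant barcodes (0 gated) and 4 Mlkl-null barcodes (1 gated) as doublets, which were kept. On counts simulated from the gated barcodes with 2582 genes, 98 of 100 genes set 4-fold higher and 93 of 100 set 4-fold lower passed 2-fold, as did 114 unchanged genes. The simulation drew each library's sum as a whole, without spread between barcodes, so these counts describe counting error alone. Alternatives changed the gate, the thinning, the weighting, the scaling, the count minimum and the barcodes kept.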

Additional observations from a re-analysis of the deposited data

Results flagged for a closer look

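Agr2, which encodes a disulfide isomerase of goblet cells, was lower in the Casp8 mutant within the gated barcodes (log2 ratio -1.91) and higher outside them (1.09). Of its gated Mlkl-null UMIs, 116 of 140 were in 1 barcode. Cd74, the MHC class II invariant chain gene, was higher in the Casp8 mutant within the gated barcodes (log2 ratio 3.16) and lower in the other barcodes (-1.13). These pairs were marked because the directions were opposite, and the difference between them was not tested.

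Barcodes with fewer than 500 genes, which entered no comparison, also held UMIs of the 6 gate genes. These stood at 90.5 CPM (53.7 to 143) in the 139 Casp8 mutant barcodes and 49.6 CPM (16.1 to 116) in the 39 Mlkl-null barcodes. In the Casp8 mutant, 18 UMIs lay in 17 barcodes with at most 2 in any.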

How the results depend on the processing

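Depth limits the gene values: 15 Casp8 mutant and 4 Mlkl-null gated barcodes had under 1500 UMIs, and the 3 deepest held 36.3% of gated UMIs in the Casp8 mutant and 37.8% in the Mlkl-null library. The division by mesothelial genes and the removal of single deep, muscle-rich or Saa3-rich barcodes were chosen after seeing the data. No paired analysis was possible because each genotype has 1 library and no result comes from a test. Gene values with under 5 UMIs under an alternative are left out.

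The ratio of gated shares (1.43) was 3.47 in marked barcodes alone. The count of genes 2-fold higher in members of the gate (293) became 78 with gate genes at 1% or more of UMIs, 112 after thinning, 186 without the 5 deepest barcodes of each library, 129 and 3649 with gene minimums of 50 and 1 UMIs, and 147 without marked barcodes. The count of genes 2-fold lower in members of the gate (419) became 76, 107, 185, 116, 5973 and 214 under the same alternatives, 247 with gate genes at 0.5% and 168 in marked barcodes. The interferon ratio (4.96) was 3.50 with gate genes at 1%, 4.49 without barcodes richer in transcripts of other cell types, 4.07 after thinning, 4.01 as a mean over barcodes, 3.67 without the 5 deepest, 3.62 without marked barcodes and 7.25 in marked ones. The matrix ratio (0.640) was 0.584 with at least 1000 genes per barcode, 0.695 and 0.707 with gate genes at 0.5% and 1%, 0.711 without barcodes richer in other transcripts, 0.742 as a mean over barcodes, 0.589 under median of ratios scaling, 0.704 without the 5 deepest and 0.704 in marked barcodes. That scaling moved all log2 ratios by -0.12. Both ratios kept their direction under every alternative run.

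Of 2619 values of 170 genes under 16 alternatives, 2294 stayed within the counting interval of the reported value and 302 left it. The other 23 changed sign in genes that were at least 2-fold apart over all gated barcodes. Sign changes of genes less than 2-fold apart were not counted separately. Agr2 became 0.47 (log2) with gate genes at 0.5%, 0.061 at 1%, 0.11 after thinning, 0.26 without the 5 deepest, 0.78 in marked barcodes and 0.40 without the deepest unmarked Mlkl-null barcode. Spink1 became 0.47, 0.016, 0.39 and 0.59 under the first 4 of these and 0.37 without that barcode. Stmn2 became 0.39 at 1%, 0.32 without the 5 deepest and 0.78 without marked barcodes. After thinning, Rbp4 became 0.66, Igf1r and Sfrp1 0.29 each and Tnfrsf1a 0.0050. Rbp4 was 0.53 without the 5 deepest. Col4a1 was 1.31 in marked barcodes, and P4ha1 0.087 without them. At 1%, S100a11 became -0.26 and Top2a 0.085. The cause was not tested.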
